A study of Mus musculus with 16 samples.

Results

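The astrocyte genes described here are a list of 37 markers and functional genes of astrocytes, chosen by name with earlier results of these data known. All 37 were found by gene symbol among the 22440 genes of the 4 deposited RNA-seq tables. The cells were primary neuronal cultures dissociated from the cortex of Swiss-Webster mouse embryos at embryonic day 16, kept in Neurobasal medium with B27, in a study of DNA breaks and early-response genes. The etoposide control is the culture titled only as control, and the etoposide culture received 5 µM of etoposide, a poison of type II topoisomerases, for a time that the labels do not give. The NMDA control is the further, numbered control, and the NMDA culture received NMDA, an agonist of a class of glutamate receptor, which the labels give as 50 µM for 10 min with 10 min of recovery in most experiments. Neither control's title names a treatment, no genetic change is named in any group, and the labels give neither the days in culture nor whether the controls were of the same preparation. With 1 library in each group, the differences below were not checked in replicates, and no test was run.

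Astrocytes are the glial cells that clear glutamate and potassium from around neurons, carry water and ions between tissue and blood vessels, and supply lipids and antioxidants. Glutamate taken up by the transporters Slc1a2 and Slc1a3 is turned into glutamine by glutamine synthetase (Glul) and handed back to neurons. In the developing cortex astrocytes arise after most neurons, from radial glia, so an embryonic cortical culture grown in serum-free medium is made mainly of neurons when it is plated. In bulk RNA, fewer cells of a type and less RNA per cell cannot be told apart.

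Values are FPKM, the fragments per kilobase of transcript scaled to a library's fragment total. The low values of the tables put those totals near 14.3 M and 11.6 M fragments for the etoposide control and etoposide, and near 19.1 M and 18.2 M for the NMDA control and NMDA. The microRNA locus Mir5109 held between 51.9% and 76.5% of the FPKM sum of a library. FPKM levels of the pairs did not lie on the same scale. Among the 9533 genes at FPKM of at least 1 in all 4 libraries, the median FPKM was 5.65 and 4.18 in the etoposide pair (control first) and 17.3 and 17.7 in the NMDA pair. For this reason a relative log2 fold is used below, which is log2 of the ratio of (FPKM + 1) minus its median over all genes at FPKM of at least 1 in either library. That median was 1.32 for the NMDA control against the etoposide control, -0.32 for etoposide against its control and 0.02 for NMDA against its control. A scaled ratio is the plain FPKM ratio after each library was set to the same median over the 9533 genes. Its intervals are exact 95% intervals on estimated numbers of fragments, so they hold only the error of counting.

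Of the 37 genes, 28 and 25 reached an FPKM of 1 in the etoposide control and with etoposide, and 34 did in both libraries of the NMDA pair. Transcripts of 25 of the 37, with Gfap, Aqp4 and Aldh1l1 among them, reached FPKM 1 in every library, although the labels name only neurons. Other markers, such as S100b and Sox9, did not reach it with etoposide. Which cells the members' transcripts came from was not tested. Apoe, Cst3 and Mt1 were the 3 highest members in each library. Gfap was at percentile 85.9 of protein-coding genes in the etoposide control and 97.0 in the NMDA control, and Slc1a3 was at 97.7 and 98.9. Summed over the 37 genes, FPKM made up 0.665% of the total of all protein-coding genes in the etoposide control and 0.663% with etoposide, against 1.90% and 1.81% in the NMDA control and with NMDA. Without the 5 abundant members Apoe, Cst3, Mt1, Mt2 and Mt3, which other cells also express, the shares were 0.260%, 0.168%, 0.565% and 0.539% in the same order. These shares do not depend on how libraries are scaled to each other. The NMDA pair stood above the etoposide pair on both sums, and the libraries of the NMDA pair were close to each other.

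**Figure D1:**
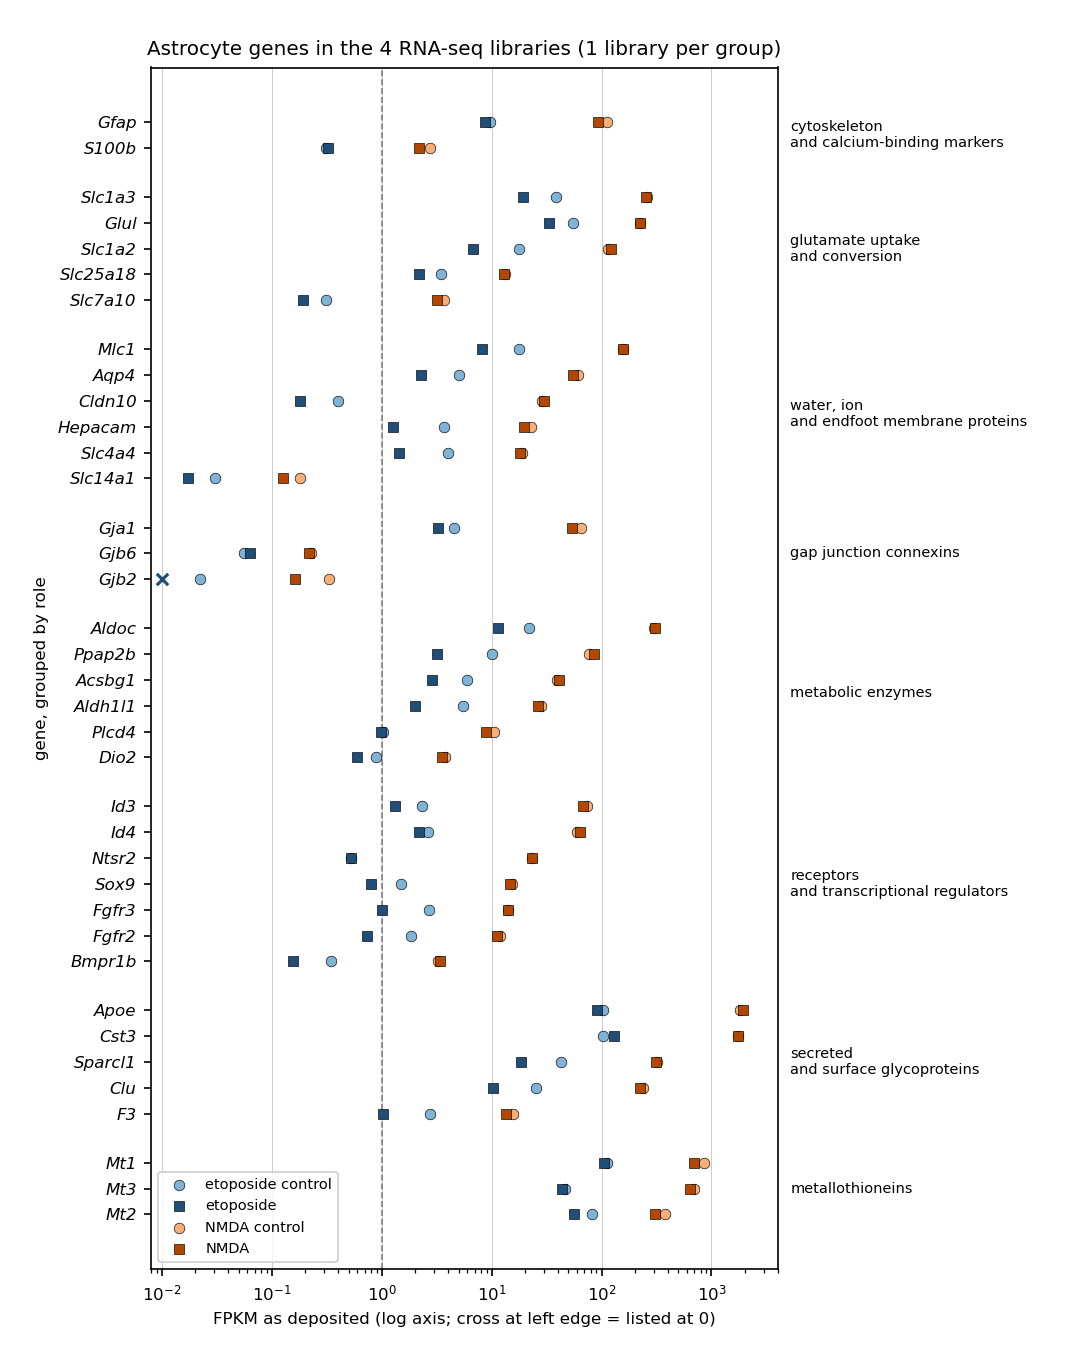
FPKM as deposited (log axis) of the 37 astrocyte genes in the 4 libraries, grouped by role, with 1 point per library. Circles are controls and squares are treated cultures. The 2 orange points of the NMDA pair lie to the right of the 2 blue points for every gene, in part because the scales of the pairs differ.

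Gfap, the intermediate filament that defines astrocytes, was at 9.59 FPKM in the etoposide control and 8.64 with etoposide, and at 113 in the NMDA control and 93.9 with NMDA (chromosome 11, 102748650 to 102758514, mm9). S100b, a calcium-binding protein of mature astrocytes, was at 0.313, 0.323, 2.76 and 2.19 FPKM in the same order, about 7, 6, 78 and 59 fragments. The NMDA pair was higher for both genes. Gfap was 3.86-fold higher in the NMDA control than in the etoposide control by scaled ratio (interval 3.47 to 4.30).

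Among genes of glutamate handling, Slc1a3 (GLAST; chromosome 15, 8584124 to 8660807) was at 38.5 FPKM in the etoposide control and 19.5 with etoposide, and at 260 in the NMDA control and 255 with NMDA. Slc1a2 (GLT-1; chromosome 2, 102498840 to 102630941) was at 17.7, 6.80, 114 and 121 FPKM in the same order. Both transporters were lowest with etoposide and highest in the NMDA pair. Glul was at 54.6, 33.0, 226 and 226 FPKM. Slc25a18, a mitochondrial glutamate carrier, was at 3.49, 2.20, 13.1 and 12.9 FPKM. Slc7a10, a transporter of small neutral amino acids, was at 0.310, 0.192, 3.68 and 3.17 FPKM. Of the 5, Glul and Slc25a18 differed least between the controls, by scaled ratios of 1.35 (interval 1.29 to 1.42) and 1.23 (0.952 to 1.63), against 2.21 for Slc1a3 and 2.10 for Slc1a2. The ratio of Slc1a2 to Slc1a3 within a library was 0.460, 0.350, 0.437 and 0.476.

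Genes of water and ion transport and of the endfoot membrane spanned a wide range. Mlc1, a membrane protein of perivascular endfeet, was at 17.9 FPKM in the etoposide control and 8.22 with etoposide, and at 158 in the NMDA control and 156 with NMDA. Its partner Hepacam (GlialCAM) was at 3.68, 1.26, 22.7 and 19.8 FPKM in the same order. Aqp4, the astrocyte water channel, was at 5.01, 2.28, 61.4 and 54.9 FPKM. All 3 were lower with etoposide and highest in the NMDA control. Slc4a4, a sodium bicarbonate cotransporter, was at 4.004, 1.42, 19.1 and 18.0 FPKM. Cldn10, a claudin of tight junctions (chromosome 14, 119187093 to 119273747), was at 0.402, 0.179, 28.7 and 30.0 FPKM. It went from about 12 fragments in the etoposide control to 1166 in the NMDA control, a scaled ratio of 23.4 (interval 13.6 to 46.4) and the largest of the members. Slc14a1, a urea transporter, stayed between 0.0174 and 0.180 FPKM, at most 13 fragments.

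Of the gap junction genes, Gja1 (connexin 43), the main astrocyte connexin, was at 4.59 FPKM in the etoposide control and 3.23 with etoposide, and at 65.1 in the NMDA control and 54.0 with NMDA. Gjb6 (connexin 30) and Gjb2 (connexin 26), neighbours on chromosome 14, were nearly silent. Gjb6 was between 0.0564 and 0.227 FPKM and Gjb2 between 0 and 0.334 FPKM, at most 15 fragments in any library. Gjb2 was listed at 0 with etoposide. Slc14a1, Gjb6 and Gjb2 were the 3 members below 1 FPKM in all 4 libraries and have no relative fold.

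Among metabolic enzymes, Aldoc (aldolase C, of glycolysis) was at 21.8 FPKM in the etoposide control and 11.5 with etoposide, and at 301 in the NMDA control and 305 with NMDA. Aldh1l1, a folate enzyme widely used to mark astrocytes, was at 5.46, 1.999, 28.3 and 26.7 FPKM in the same order. Ppap2b, a lipid phosphate phosphatase, was at 9.99, 3.21, 76.3 and 85.3 FPKM. All 3 were lower with etoposide, and Ppap2b had the lowest relative fold of the members there. Acsbg1, an acyl-CoA synthetase, was at 6.01, 2.89, 39.6 and 41.3 FPKM. Plcd4, a phospholipase C, was at 1.03, 0.987, 10.6 and 8.88 FPKM. Dio2, which activates thyroid hormone, was at 0.888, 0.592, 3.79 and 3.57 FPKM. Dio2 was the member with the smallest difference between the controls on the relative scale, at 0.02, and its scaled ratio was 1.40 (interval 1.09 to 1.81).

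Receptors and transcriptional regulators were low in the etoposide pair. Sox9, a transcription factor of the glial lineage, was at 1.48 FPKM in the etoposide control and 0.806 with etoposide, and at 15.2 in the NMDA control and 14.6 with NMDA. Id3 and Id4 encode inhibitors of basic helix-loop-helix factors that bone morphogenetic protein (BMP) signals induce. Id3 was at 2.32, 1.33, 73.9 and 67.4 FPKM in the same order and Id4 at 2.64, 2.19, 60.1 and 63.9. Both stood far apart between the pairs, with scaled ratios between the controls of 10.4 (interval 7.64 to 14.3) for Id3 and 7.46 (5.79 to 9.73) for Id4. Bmpr1b, a BMP receptor, was at 0.347, 0.154, 3.24 and 3.38 FPKM, and its scaled ratio between the controls was 3.05 (2.03 to 4.64). The fibroblast growth factor receptors differed less. Fgfr3 was at 2.67, 1.01, 14.1 and 14.1 FPKM, and Fgfr2 at 1.86, 0.731, 11.8 and 11.2. Ntsr2, a neurotensin receptor found on astrocytes, was at 0.531, 0.522, 23.5 and 23.5 FPKM. As deposited it was almost equal within each pair, and its scaled ratio between the controls was 14.5 (interval 8.11 to 27.7, from about 12 and 695 fragments).

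Secreted and surface proteins included the highest members. Apoe, the main lipid carrier of the brain (chromosome 7, 20281593 to 20284515), was at 104 FPKM in the etoposide control and 91.0 with etoposide, and at 1803 in the NMDA control and 1948 with NMDA. Cst3 (cystatin C, a protease inhibitor) was at 103, 130, 1750 and 1734 FPKM in the same order. These 2 had scaled ratios between the controls of 5.70 (interval 5.45 to 5.96) and 5.55 (5.25 to 5.88). Clu (clusterin, a secreted chaperone) was at 25.5, 10.3, 239 and 225 FPKM. Sparcl1 (hevin, a matrix protein that promotes synapses) was at 42.5, 18.5, 320 and 310 FPKM. F3 (tissue factor) was at 2.77, 1.03, 15.5 and 13.4 FPKM. Clu, Sparcl1 and F3 were lower with etoposide, while Apoe was nearly level as deposited and Cst3 was higher.

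The metallothioneins, small proteins that bind zinc and copper, are neighbours on chromosome 8. Mt1 (96702989 to 96704227) was at 113 FPKM in the etoposide control and 105 with etoposide, and at 857 in the NMDA control and 699 with NMDA. Mt2 (96696518 to 96697467) was at 82.0, 56.5, 380 and 306 FPKM in the same order. Mt3 (96676507 to 96678048), the form typical of brain, was at 46.2, 43.4, 693 and 644 FPKM. The 3 genes did not keep a fixed proportion. Mt3 over Mt1 was 0.408 and 0.413 in the etoposide pair and 0.809 and 0.922 in the NMDA pair, while Mt2 over Mt1 was 0.724 and 0.538 in the etoposide pair and 0.443 and 0.438 in the NMDA pair. Reads of such short, similar genes can be hard to assign, and nothing in the sources used here says how the authors treated them.

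The promoter windows of the metallothioneins are shown because these neighbours kept no fixed proportion, and those of Ntsr2 and Slc1a3 because they hold the same motif while their scaled ratios between the controls were 14.5 and 2.21. The motifs other than the metal response element were chosen after the data were seen. Each is the 250 bases before the annotated start, from RefSeq (GRCm38.p6), on the gene's strand. In the first 3, capitals mark the metal response element core (TGCACNC or TGCGCNC, on either strand), the letters bound by the zinc-sensing factor MTF-1. In the last 2, capitals mark TTCNNNGAA, the letters bound by STAT factors, which drive astrocyte genes.
Mt1, plus strand, chr8:94178839-94179088: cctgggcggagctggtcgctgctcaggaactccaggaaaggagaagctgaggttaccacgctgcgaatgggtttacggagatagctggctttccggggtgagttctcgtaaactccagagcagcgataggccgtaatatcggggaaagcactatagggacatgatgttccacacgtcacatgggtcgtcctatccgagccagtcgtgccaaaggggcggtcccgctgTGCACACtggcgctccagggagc
Mt2, plus strand, chr8:94172368-94172617: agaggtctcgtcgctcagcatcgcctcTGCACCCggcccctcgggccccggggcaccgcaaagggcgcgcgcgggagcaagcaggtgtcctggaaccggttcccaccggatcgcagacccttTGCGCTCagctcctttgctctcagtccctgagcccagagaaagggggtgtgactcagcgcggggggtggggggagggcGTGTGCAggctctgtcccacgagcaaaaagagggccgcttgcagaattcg
Mt3, plus strand, chr8:94152357-94152606: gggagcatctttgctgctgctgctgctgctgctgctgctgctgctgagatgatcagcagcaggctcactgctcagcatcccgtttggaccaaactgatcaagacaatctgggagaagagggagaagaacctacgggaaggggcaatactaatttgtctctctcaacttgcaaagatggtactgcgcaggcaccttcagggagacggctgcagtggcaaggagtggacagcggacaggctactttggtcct
Ntsr2, plus strand, chr12:16653220-16653469: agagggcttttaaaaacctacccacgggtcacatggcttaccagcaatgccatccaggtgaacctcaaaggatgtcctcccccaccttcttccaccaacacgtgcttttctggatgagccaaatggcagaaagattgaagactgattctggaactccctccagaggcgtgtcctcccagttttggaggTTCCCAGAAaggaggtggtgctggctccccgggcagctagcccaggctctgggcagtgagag
Slc1a3, minus strand, chr15:8710808-8711057: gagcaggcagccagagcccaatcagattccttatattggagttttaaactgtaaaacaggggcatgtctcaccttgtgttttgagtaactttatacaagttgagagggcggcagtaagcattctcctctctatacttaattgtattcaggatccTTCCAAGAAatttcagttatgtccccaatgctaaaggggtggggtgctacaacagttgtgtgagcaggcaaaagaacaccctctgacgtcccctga
Within these windows Mt1 held 1 core, 23 bases before the annotated start, Mt2 held 3, at 223, 128 and 50 bases before it, and Mt3 held none. None of these 3 windows held TATAAA. Bases past the annotated starts were not searched, so the counts are not those of the whole promoters. Of 32851 promoter windows in the table, 21.4% held the core, and of the 41 windows of the 32 members with an entry, 6 did (14.6%). The STAT letters stood in 7.02% of all windows and in 4 of the 41 (9.76%), those of Acsbg1, Aldoc, Ntsr2 and Slc1a3. A palindrome bound by nuclear factor I (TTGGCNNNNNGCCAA) stood in 0.0365% of all windows and in 0 of the 41. TATAAA stood in 12.4% of all windows and in 5 of the 41 (12.2%). Such matches describe the letters only.

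The comparison of the controls asks how far cultures with no named treatment differed in these genes. All 34 measured members were higher in the NMDA control than the median of all genes, and the median relative log2 fold was 1.39 (2.63-fold), with quartiles of 0.82 and 2.21. At least 2-fold higher were 22 of the 34 (64.7%), where 8.02% of all 12987 genes were, while 0 were lower by that much, where 2.96% of all genes were. Of the 34, 6 passed the filter through the NMDA control alone, so their FPKM as deposited had to be higher there, though not their relative fold. Among the 28 at FPKM of at least 1 in both controls, all 28 were above the median by plain FPKM ratio, 21 by 2-fold or more (7.56% of all genes), and 0 were lower by 2-fold (3.44%). Centred on pan-neuronal markers, 33 of the 34 lay above 0. The highest were Id3 at 3.17, Cldn10 at 3.08, Apoe at 2.79, Cst3 and Id4 at 2.75, Ntsr2 at 2.68 and Mt3 at 2.56. The lowest were Dio2 at 0.02, S100b at 0.20, and Slc25a18 and Bmpr1b at 0.33. The pseudocount of 1 FPKM compresses low genes, and Bmpr1b and S100b had scaled ratios of 3.05 and 2.89. After median scaling, 36 of the 37 genes were higher in both libraries of the NMDA pair than in both of the etoposide pair, and Gjb6 was the exception. The 36 include Gjb2 and Slc14a1, each at 15 fragments or fewer in any library. The share of all genes that met this rule is not given here.

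**Figure D2:**
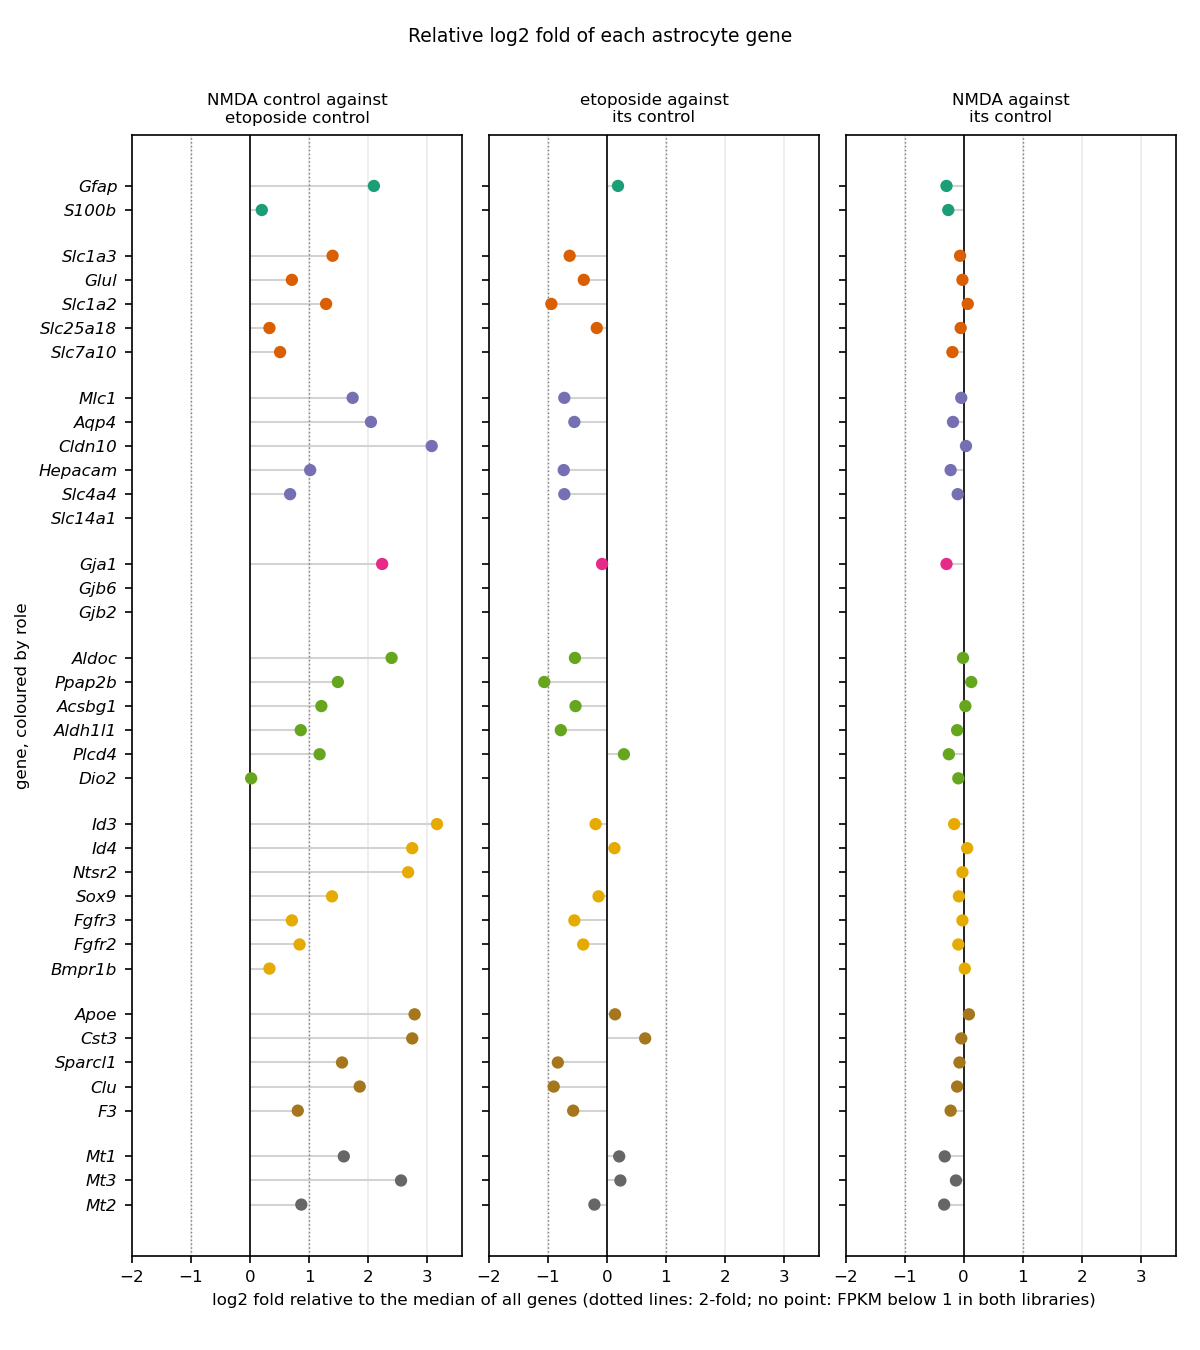
Relative log2 fold of each astrocyte gene in the 3 comparisons, with 1 point per gene, coloured by role; genes below 1 FPKM in both libraries have no point. Between the controls all 34 points lie above 0, from 0.02 for Dio2 to 3.17 for Id3. With etoposide 21 of 28 lie below 0, and with NMDA all 34 lie within 0.33 of 0.

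By role, the median relative log2 fold between the controls was 1.86 for the 5 secreted and surface proteins, 1.74 for the 5 measured water, ion and endfoot genes, 1.59 for the metallothioneins, 1.39 for the 7 receptors and regulators, 1.20 for the 6 metabolic enzymes and 0.71 for the 5 genes of glutamate handling. This order depends on the pseudocount, which compresses low genes. Slc7a10, of glutamate handling, entered at 0.51 with a scaled ratio of 3.89, and Bmpr1b, of the receptors, at 0.33 with 3.05. The order of roles by scaled ratio is not given here. Shorter and more abundant members tended to differ more. Across the 34 members, Spearman's rho of the relative fold was -0.42 with genomic span, -0.42 with transcript length and 0.63 with mean FPKM. Across all genes with a locus of their own, which are not independent replicates, the same rho was -0.23 with span and -0.36 with transcript length. The members kept Plcd4 and Slc7a10, whose deposited loci are shared with a neighbour. Part of any rho with abundance comes from the pseudocount, and the points share the same 2 libraries. The members' median span was 13.9 kb, against 25.9 kb for all genes compared.

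A further list of 38 astrocyte genes that are not members, also chosen with earlier results known, had a median of 1.06 over 35 measured genes. Of these, 30 were above 0 and 21 were higher by at least 2-fold (8.02% of all genes), with 0 lower by as much (2.96%). Through the NMDA control alone 9 of the 35 passed the filter, so their FPKM as deposited had to be higher there. Of the 26 at FPKM of at least 1 in both controls, 22 were higher by scaled ratio and 4 lower. Dbi, the precursor of a peptide ligand of GABA-A receptors, was at 100 and 1380 FPKM, Fabp7, a fatty acid binding protein of radial glia and astrocytes, at 94.1 and 867, and Ndrg2 at 16.5 and 250, in the etoposide control and the NMDA control. Kcnj10, the potassium channel Kir4.1, was at 1.93 FPKM in the etoposide control and 0.255 with etoposide, and at 13.8 in the NMDA control and 10.6 with NMDA.

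Genes that astrocytes switch on when they become reactive were mixed in direction. Of 25 measured genes of that list, 10 were above 0 and 15 below, 4 were higher by at least 2-fold and 6 lower by as much, and the median was -0.27. This tally depended on the measure, since many of these genes were near 1 FPKM. By scaled ratio, a count added after the data were seen, 16 of the 25 were higher and 9 lower, with a median ratio of 1.22, and of the 10 genes at FPKM of at least 1 in both controls 5 were higher and 5 lower. The members' median scaled ratio was 2.89. Lcn2 (lipocalin 2) was at 23.9 FPKM in the etoposide control and 13.1 in the NMDA control, a relative log2 fold of -2.14. Vim (vimentin) was at 72.5 and 314 FPKM, a relative fold of 0.78, and S100a10 at 10.8 and 81.1, a relative fold of 1.47. Chosen after their values were seen, Cp (ceruloplasmin) was at 7.43 and 3.18 FPKM and Timp1 at 2.01 and 0.446, with relative folds of -2.34 and -2.38. Summed FPKM of this list was 0.127% of the protein-coding total in the etoposide control and 0.124% in the NMDA control, while that of the members was 0.665% and 1.90%. The list of reactive genes comes from other settings, and some of its genes are expressed by other cells.

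**Figure D3:**
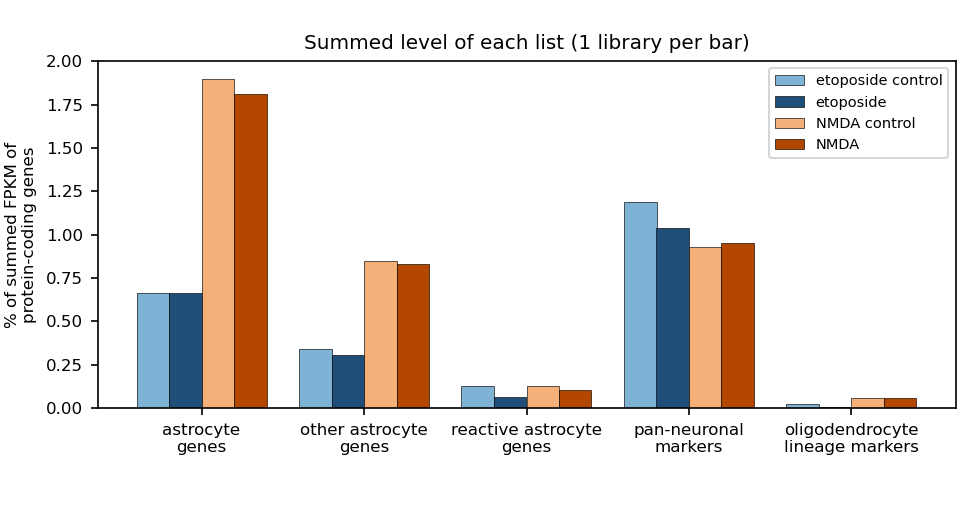
Summed FPKM of each gene list as a percentage of the summed FPKM of all protein-coding genes, with 1 bar per library. The astrocyte genes stand at 0.665% and 0.663% in the etoposide pair and at 1.90% and 1.81% in the NMDA pair, while the pan-neuronal markers stand between 0.930% and 1.19%.

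Markers of some other cells also differed between the controls, and their part in the members' difference was not tested. Pan-neuronal markers had a median of 0.06, with 10 of 19 above 0 (Gap43 at 0.71, Tubb3 at 0.21 and Uchl1 at -0.13). The direction depended on the measure. By scaled ratio 6 of the 19 were higher and 13 lower, with a median ratio of 0.905. Their share of the protein-coding total was 1.19% in the etoposide control and 0.930% in the NMDA control. The members' sum was 0.557 times that of the pan-neuronal markers in the etoposide control and 2.04 times in the NMDA control. Oligodendrocyte lineage markers had a median of 1.13 over 14 genes, with 12 above 0, 2 below and 8 at least 2-fold higher. By scaled ratio all 14 were higher. However, 11 of the 14 passed the filter through the NMDA control alone, so their FPKM as deposited had to be higher there, though not their relative fold. Their summed FPKM as deposited was 22.8 and 248, which was 0.0206% and 0.0604% of the protein-coding total, with Mag and Bcas1 at 0 in the etoposide control. Pdgfra, the receptor of their precursors, was at 0.102 and 42.7, with Olig2 at 1.85 and 38.3. Progenitor and radial glia markers had a median of 0.91, with 6 of 7 above 0 and 5 of 7 higher by scaled ratio. Sox2 was at 5.28 and 46.9 FPKM, Hopx at 5.89 and 31.3 and Nes at 8.83 and 16.7. Dividing cell markers had a median of 0.68, and 6 of these 10 also passed through the NMDA control alone (Top2a at 1.51, Ccna2 at 1.09, Pcna at 0.65). Excitatory and inhibitory neuron markers had medians of -0.29 and -0.33, with 3 of 10 above 0 in each. By scaled ratio 2 and 4 of the 10 were higher. The relative folds of Slc17a7, Neurod6 and Camk2a were 0.81, -0.01 and 0.18, and those of Sst and Gad1 were 0.73 and -0.79. Microglial markers made up 0.00109% of the protein-coding total in the etoposide control, with C1qa, C1qb and C1qc at 0, and 0.00198% in the NMDA control. Their summed FPKM as deposited was 1.20 and 8.12, and in the NMDA control Aif1 was at 2.63 FPKM, Cd68 at 1.98 and C1qc at 1.20. The median relative fold of the 3 measured was -0.18, with 1 above 0, and all 3 passed the filter through the NMDA control alone. By scaled ratio all 3 were higher there. Endothelial and mural markers had sums of 11.0 and 51.5 as deposited, which was 0.00994% and 0.0125% of the protein-coding total. Their median relative fold was 0.44 with 4 of 5 above 0, and 3 of the 5 passed through the NMDA control alone. The endothelial genes Cdh5, Cldn5, Tie1 and Tek were at 0 in the etoposide control, and the mural genes Acta2 and Tagln had relative folds of 0.91 and -0.01. Cspg4, at 0.109 and 5.27 FPKM with a relative fold of 1.18, is in both this list and the oligodendrocyte list, as a marker of pericytes and of oligodendrocyte precursors.

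**Figure D4:**
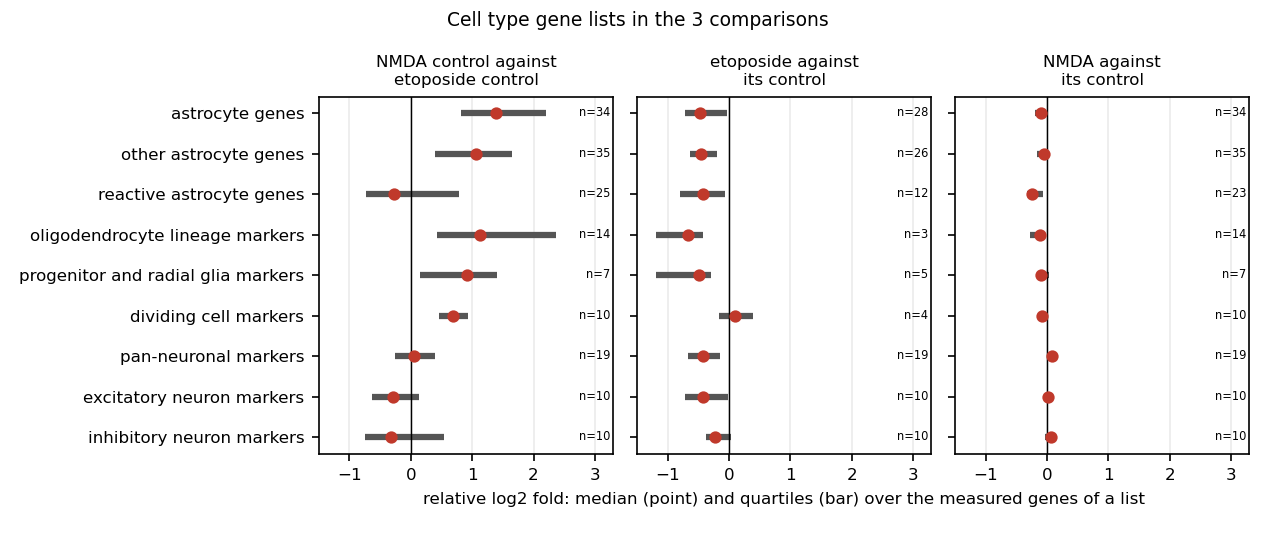
Median (point) and quartiles (bar) of the relative log2 fold over the measured genes of each list, in the 3 comparisons; n is the number of measured genes. Between the controls the astrocyte genes (1.39), other astrocyte genes (1.06) and oligodendrocyte lineage markers (1.13) lie to the right of 0, and with etoposide the astrocyte genes (-0.47) and pan-neuronal markers (-0.42) lie close together.

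The etoposide comparison asks how transcript levels differ after a topoisomerase poison. As deposited, 34 of the 37 genes were lower with etoposide. That count takes in a downward shift of the whole library, whose 10681 compared genes centred on -0.32 in log2 before any correction. The share of all genes that were lower as deposited is not given here. Relative to all genes, 21 of 28 measured members were lower and 7 higher. Their median relative log2 fold was -0.47, with quartiles of -0.72 and -0.03. Only Ppap2b, at -1.06, was at least 2-fold lower (1 of 28, 3.57%, against 2.08% of all 10681 genes), and 0 were higher by that much (1.47% of all genes). With no filter on low values, which moves the median of all genes, 27 of the 28 lay below 0. By plain FPKM ratio, which does not compress low genes, 6 of 25 were at least 2-fold lower relative to the median, where 3.84% of all 9614 genes were, and 0 were higher (2.85%). That count changed both the pseudocount and the filter, and with the pseudocount alone set to 0.1 FPKM it was 3 of 28. The share of all genes with that pseudocount is not given here. The authors' deposited table listed 6 of the 37 members as lower (16.2%, against 3.03% of all genes) and 0 as higher (0.0535% of all genes). These were Aldh1l1, Clu, Hepacam, Mlc1, Ppap2b and Slc4a4, with control-to-treated FPKM ratios of 2.73, 2.47, 2.92, 2.18, 3.11 and 2.81 in the authors' deposited table.

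The members did not move as a block with etoposide. All 4 measured genes of the endfoot and ion group lay between -0.73 (Hepacam) and -0.55 (Aqp4), and the glutamate transporters Slc1a2 and Slc1a3 were at -0.94 and -0.63. Clu and Sparcl1 were at -0.90 and -0.83. On the other side, Cst3 was at 0.65, Plcd4 at 0.29, Mt3 at 0.23, Mt1 at 0.21, Gfap at 0.19, Apoe at 0.14 and Id4 at 0.13. Gja1 at -0.08 and Sox9 at -0.14 lay near the median of all genes. Gfap over Slc1a2 within a library was 0.541 in the etoposide control and 1.27 with etoposide, and no scaling enters that value. By scaled ratio, Slc1a2 was at 0.518 times its control (interval 0.481 to 0.558), Gfap at 1.22 times (1.04 to 1.43) and Cst3 at 1.70 times (1.57 to 1.84).

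Longer members were lower with etoposide, as were longer genes in general. Across 28 members Spearman's rho of the relative fold was -0.54 with genomic span and -0.52 with transcript length, where across all genes with a locus of their own it was -0.47 and -0.43. The members kept Plcd4, whose deposited span of 178.6 kb is a locus shared with a neighbour, so these sets are not alike. The 9 members that span over 30 kb, with Plcd4 among them, had a median of -0.72 and the 19 shorter ones -0.19. All genes, here with shared loci kept, had -0.18 and 0.15. The split at 30 kb was chosen after the values were seen. In both span classes the members' median thus lay below that of all genes.

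**Figure D5:**
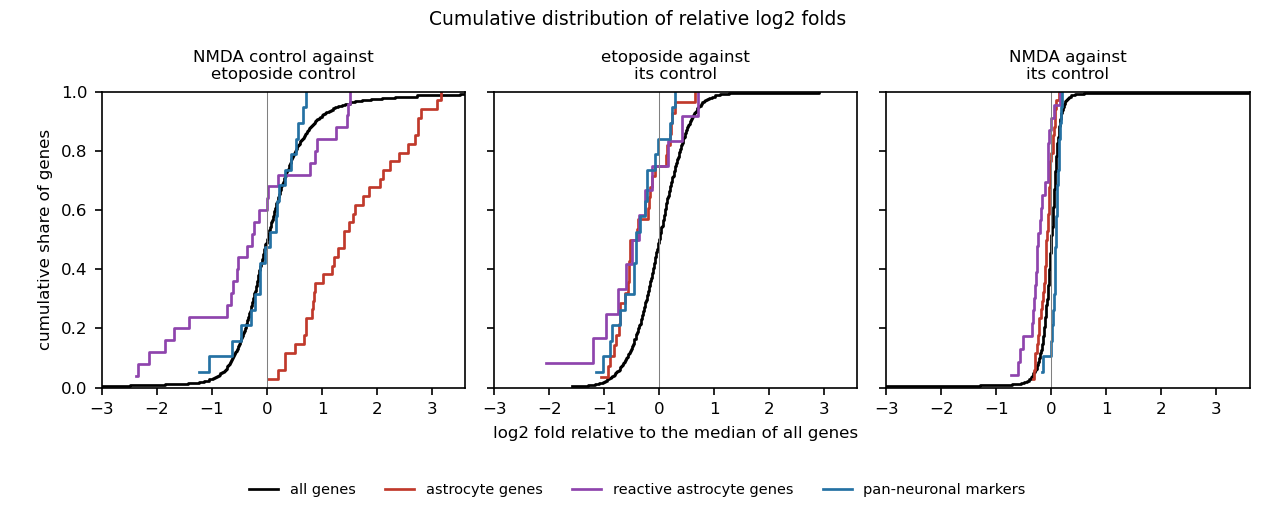
Cumulative share of genes against the relative log2 fold, for all genes (black), the astrocyte genes (red), reactive astrocyte genes (purple) and pan-neuronal markers (blue), in the 3 comparisons. Between the controls the red curve starts at 0.02, lies to the right of the purple and blue curves and ends at 3.17, where the black curve of all genes runs on to higher values, and with etoposide the red and blue curves run together at medians of -0.47 and -0.42.

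Most other lists also had medians below that of all genes with etoposide. Pan-neuronal markers had a median of -0.42 (16 of 19 below 0), excitatory neuron markers -0.43 (7 of 10), inhibitory neuron markers -0.22 (7 of 10, with Sst at 1.64), further astrocyte genes -0.45 (22 of 26 below 0), reactive astrocyte genes -0.43 (9 of 12) progenitor markers -0.48 (4 of 5) and oligodendrocyte lineage markers -0.67 (3 of 3). Of the 26 further astrocyte genes, 10 passed the filter through the control alone, so their FPKM as deposited had to be lower with etoposide. Of the 16 at FPKM of at least 1 in both libraries, 12 were lower by scaled ratio and 4 higher. Through the control alone also passed 2 of the 3 oligodendrocyte lineage markers, 2 of the 5 progenitor markers, 3 of the 12 reactive genes and 3 of the 28 members. The differences between these lists and the members were not tested. Set against the median of the pan-neuronal markers in place of all genes, 14 members lay above and 14 below, at a median of -0.04. The ratio of the members' sum to that of the pan-neuronal markers was 0.557 in the control and 0.640 with etoposide, and without Apoe, Cst3 and the metallothioneins it was 0.218 and 0.163. Some genes of other cells moved further. Olig1 went from 16.6 to 3.36 FPKM, Acta2 from 4.61 to 0.0944 and Lcn2 from 23.9 to 3.78, while dividing cell markers had a median of 0.10 over 4 genes and the microglial gene Cd68 went from 0.420 to 1.57 FPKM.

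The size with etoposide also depended on the control. Against the NMDA control after median scaling, a setting chosen after the data were seen, the median was -1.64 and 28 of 34 members were at least 2-fold lower, where 9.19% of all 12988 genes were, and 0 higher, where 5.19% were. Without the scaling the count was also 28 of 34, with 8.42% of all genes lower and 6.16% higher by 2-fold. Only 25 of the 34 reached FPKM 1 with etoposide. The rest passed the filter through the NMDA control alone, so their FPKM as deposited had to be lower with etoposide. Gfap was at 0.316 times that control by scaled ratio and at 1.22 times its own. Apoe was at 0.208 and 1.19 times and Cst3 at 0.306 and 1.70 times, so their direction turned with the control, while Slc1a2 (0.247 and 0.518), Clu (0.178 and 0.548) and Ppap2b (0.174 and 0.434) were below both. The libraries of the etoposide pair were thus closer to each other in these genes than the controls were.

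The NMDA comparison asks what receptor activation does, and differences in the members were small. Of 34 measured, 27 lay below the median of all genes and 7 above, with a median relative log2 fold of -0.09 and a range from -0.33 (Mt2) to 0.13 (Ppap2b). None was at least 2-fold higher (0.414% of all 13028 genes were) or lower (0.729% were), and 0 of the 37 were in the authors' deposited table in either direction (0.111% and 0.169% of all genes were). By plain FPKM ratio 0 were 2-fold higher (0.135% of all genes) and 0 lower (0.293%). With no filter on low values 23 of the 34 lay below 0, and centred on pan-neuronal markers 32 did. The lowest were Mt2 at -0.33, Mt1 at -0.32, Gfap and Gja1 at -0.29, S100b at -0.26 and Plcd4 at -0.25. By scaled ratio Mt1 was at 0.795 times the control (interval 0.772 to 0.819), Mt2 at 0.787 (0.751 to 0.825), Gfap at 0.811 (0.779 to 0.843) and Gja1 at 0.809 (0.771 to 0.849). Mt3 was at 0.906 (0.876 to 0.938), nearer to its control than its neighbours.

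Above the median with NMDA were Ppap2b at 0.13, Apoe at 0.09, Slc1a2 at 0.07, Id4 at 0.06, Cldn10 at 0.04, Acsbg1 at 0.03 and Bmpr1b at 0.02. The scaled ratio of Slc1a2 was 1.04 (interval 1.02 to 1.06) and that of Apoe 1.05 (1.04 to 1.07). With 1 library per group these intervals say nothing of the spread between cultures, and for each of these 7 genes the relative fold between the controls was larger. Reactive astrocyte genes lay lower than the members, at a median of -0.24 with 21 of 23 below 0, and Vim went from 314 to 257 FPKM and Lcn2 from 13.1 to 8.65. All 14 oligodendrocyte lineage markers were below 0 (median -0.11), while pan-neuronal markers had a median of 0.08 with 16 of 19 above 0. Their part in the members' values was not tested. Against the etoposide control in place of its own, 20 members were at least 2-fold higher with NMDA, where 7.33% of all 12870 genes were, and 0 lower (3.31%). After median scaling 20 were higher (7.50% of all genes) and 0 lower (2.84%). Of the 34 members compared, 28 reached FPKM 1 in the etoposide control. The rest passed the filter through NMDA alone, so their FPKM as deposited had to be higher there.

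Exons of 9 members overlap those of another gene in the GENCODE annotation of the same build, 8 on the opposite strand (Aldh1l1, Slc1a2, Glul, Slc7a10, Id4, Plcd4, Dio2 and Sparcl1) and 1 on the same strand (Fgfr2). Their values are uncertain by the share of reads that belong to the partner, and Slc7a10 and Plcd4 share their deposited locus with a neighbour. The order of the 37 levels was nearly the same within a pair (Spearman's rho 0.98 in the etoposide pair and 1.00 in the NMDA pair) and less so between the controls (0.93). These rho values describe genes within libraries and carry no test.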

How the data were processed

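RNA was measured in 4 libraries, 1 per group, as paired-end reads from a total RNA kit, per the labels' protocols. The FPKM values are the authors' own, used as deposited. Of the tools in the submitters' processing notes (Cufflinks 2.0.0, TopHat, Bowtie, Cuffdiff, HOMER, Picard, BWA; build mm9), no role or order was given, and nothing says how strands were handled. The authors' deposited tables list 12 genes as higher and 680 as lower with etoposide, and 25 and 38 with NMDA, by a rule that the sources used here do not state. Their FPKM equal those of the library tables within a relative tolerance of 0.0001. The 12 chromatin samples were not analysed here.

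Groups follow the sample titles. The members and gene lists were chosen with earlier results of these data known. Members that reach FPKM 1 in a library are named with all 4 values and the others with their range. Of each other list, the 3 measured genes with the highest mean FPKM are named with the values that a comparison turns on, as is Kcnj10. A gene that this rule takes is not reported here, though it stays in the list medians and counts. Relative log2 folds used a pseudocount of 1 FPKM, a minimum of 1 FPKM in either library and the median of all genes, and the size rule was 2-fold. Fragment numbers came from the FPKM of 1 fragment on 1 kb, read from 76 to 123 single-exon genes per library of at least 900 bases, and GENCODE transcript lengths. Deposited starts count from 0, so 1 was added. Alternatives were other pseudocounts, filters, scalings and the other control. Steps ran in Python 3.11.15 with pandas 2.3.3 and scipy 1.17.1 and were tested on simulated data. Promoters came from a RefSeq table of another build, GRCm38.p6, and their coordinates are not mixed with mm9.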

Additional observations from a re-analysis of the deposited data

How the results depend on the processing

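No paired analysis was possible because each group had 1 library, and for the same reason no library could be left out. Between the controls, the median relative log2 fold was 1.81 with no filter on low values and 1.25 with median scaling before the pseudocount. The count of members at least 2-fold higher stayed between 21 and 30 in every setting run. The share of all genes was 8.02% as reported and 7.56% by plain FPKM ratio, and is not given for the other settings. For etoposide against its control, the median was -0.59 by plain FPKM ratio and -0.04 when centred on pan-neuronal markers. It was -1.81 against the control of the other pair and -1.64 when median scaling was added. The count of members at least 2-fold lower, 1 as reported, was 6 by plain ratio (3.84% of all genes). It was 28 against the control of the other pair with or without median scaling (9.19% and 8.42% of all genes). With a pseudocount of 0.1 FPKM it was 3, with no filter 8 and at FPKM of at least 5 it was 0. When centred on pan-neuronal markers it was 0, and 1 member was at least 2-fold higher. Counts with no share of all genes beside them cannot be read against all genes. For NMDA, the median took the opposite sign against the control of the other pair, at 1.32, and at 1.09 with median scaling added, with 20 members at least 2-fold higher in both (7.33% and 7.50% of all genes). In comparisons with the control of the other pair, some members passed the filter through the NMDA pair alone. The other settings left the NMDA median between -0.17 and -0.07 with no member past 2-fold. The scaled-ratio counts of the other lists, centring on pan-neuronal markers and adding median scaling to the other control were chosen after the data were seen. The cause of these shifts was not tested. Depth limits Gjb2, Gjb6 and Slc14a1, each at 15 fragments or fewer, and Cldn10, Ntsr2, S100b and Slc7a10 in the etoposide pair, at 12 or fewer.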
